A study of Mus musculus with 20 samples.

Results

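Cytosolic ribosomal protein genes encode the protein parts of the ribosome that makes the cell's proteins from nuclear messages. They were chosen by symbol alone: every symbol of the form Rpl or Rps followed by a number, with or without one of the endings a, a1, x, l, l1 or al, plus Rplp0, Rplp1 and Rplp2. The rule found 84 genes among the 24394 symbols shared by the 3 count tables, 52 of the large subunit and 32 of the small subunit. Of the 84, 8 are paralogs or ribosomal-protein-like genes, called RP-like here: Rpl3l, Rpl7l1, Rpl10l, Rpl22l1, Rpl36al, Rpl39l, Rps4l and Rps27l. The rule leaves out ribosomal protein genes with symbols of another form, and 77 mitochondrial ribosomal protein genes, which were looked at separately.

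The libraries came from fibro-adipogenic progenitors, mesenchymal cells that lie between muscle fibres and give rise to fibroblasts and adipocytes. KPC mice had KPCY cells, a mouse pancreatic tumour line, injected into the pancreas, and control mice had a sham operation; all were male C57BL/6J mice. Progenitors were sorted from hindlimb muscle as live SCA-1+ cells negative for CD31, CD45 and α7-integrin, and polyadenylated RNA was sequenced from both ends. There were 4 KPC and 3 control libraries at day 14, 3 KPC and 3 control libraries at day 21, and 3 KPC and 4 control libraries at day 26, each labelled as a biological replicate. Library totals ran from 12944751 to 26434933 counts. The labels also give each library a code; its leading number separates KPC from control libraries completely at days 14 and 21, so there the number and the group cannot be told apart. At day 26, 2 KPC and 3 control libraries share the number 227. Markers of the progenitors and of the sort were looked at over the 20 libraries. Pdgfra, which marks these progenitors but was not used in the sort, ran from 1196 to 1700 scaled CPM. Ly6a, the gene of SCA-1, ran from 503 to 1417. The excluded leukocyte gene Ptprc (CD45) ran from 0.0397 to 5.74, the satellite cell gene Pax7 from 0 to 1.75 and the endothelial gene Pecam1 (CD31) from 4.45 to 241 scaled CPM. Itga7, the gene of the excluded α7-integrin, ran from 1.87 to 18.7. At day 14 Itga7 was 5.46 to 13.9 in KPC and 1.87 to 3.37 in control libraries, and Pecam1 was 46.8 to 78.8 and 8.26 to 25.2, without overlap in either.

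Ribosomal proteins are made in nearly equal numbers and are assembled with ribosomal RNA in the nucleolus into a small subunit, which decodes the message, and a large subunit, which joins amino acids. Most of their messages begin with a C followed by a run of C and T bases, the 5′ terminal oligopyrimidine (TOP) motif. Through it the kinase complex mTORC1 and the protein LARP1 control their translation and stability together. Levels are given as scaled CPM, which are CPM taken over a library size corrected by the trimmed mean of M-values within each day.

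The annotated starts were searched for nearby runs of C and T, which are not the motif itself. Whether an annotated start is the first base of the message in these cells was not tested. A short or distant run therefore does not show that a message lacks the motif. The RefSeq promoter table (build GRCm38.p6) held 63 of the 84 genes, with 75 starts. The windows below run 25 bases before to 25 from the start on the gene's own strand, and capitals mark the longest run of C and T in each (the first where runs tie). The first pair, Rps27 (chr3:90213624-90213673, minus strand) and Rps6 (chr4:86857343-86857392, minus strand), carry a run that crosses the start. The second pair, Rps4x (chrX:102189367-102189416, minus strand) and Rpl23 (chr11:97782415-97782464, minus strand), which with Rps27 passed the test at day 21, have short runs away from it. The last pair, the RP-like genes Rps27l (chr9:66946061-66946110, plus strand, the first of its 2 starts) and Rpl22l1 (chr3:28805483-28805532, plus strand), have runs that do not cross the start.
Rps27: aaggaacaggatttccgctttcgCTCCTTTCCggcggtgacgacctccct
Rps6: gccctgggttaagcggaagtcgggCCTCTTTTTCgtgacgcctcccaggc
Rps4x: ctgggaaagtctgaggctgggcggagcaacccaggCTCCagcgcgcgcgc
Rpl23: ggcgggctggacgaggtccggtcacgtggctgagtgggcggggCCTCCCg
Rps27l: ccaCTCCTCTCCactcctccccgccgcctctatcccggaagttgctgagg
Rpl22l1: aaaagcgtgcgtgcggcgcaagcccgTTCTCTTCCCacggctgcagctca

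The run in Rps27 is 9 bases long and starts 2 bases before the annotated start, and that in Rps6 is 10 bases long and starts 1 base before it. In Rps4x the longest run is 4 bases and in Rpl23 it is 6 bases. Over all members, 34 of 75 starts (45.3%) held a run of at least 8 C or T bases on the sense strand, compared with 19.7% of the 32851 starts in the table. The sequence CCGGAAGT, searched on both strands from 250 bases before to 50 after the start, stood at 14.7% of member starts and 3.89% of all starts. AAGATGGC stood at 10.7% of member starts and 2.75% of all starts, and TATAAA at 9.33% and 13.6%. These matches describe letters in the windows and were not tied to the expression values.

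Ribosomal protein messages made up a small part of each library, and at day 21 that part was larger in every KPC library than in any control. At day 14 the 84 genes together took 2.49, 2.59, 1.78 and 2.47% of counts in KPC libraries, against 2.31, 2.23 and 2.58% in controls. KPC replicate 3 was the lowest of the 7, and it was also the library with the fewest counts. The other 3 KPC libraries lay inside or just above the control range.

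At day 21 the share was 3.12, 3.06 and 2.95% in KPC libraries, against 2.59, 2.71 and 2.15% in controls, and the lowest KPC library stood above the highest control. At day 26 it was 3.59, 3.02 and 2.43% in KPC libraries, against 2.19, 2.37, 2.17 and 2.83% in controls. There KPC replicates 1 and 2 lay above all controls, and KPC replicate 3 lay below control replicate 4. Those 2 KPC replicates and control replicates 1 to 3 are the ones with the number 227, and within that number the groups did not overlap. The order at day 26 depended on the most abundant genes. With the 50 most abundant left out of the totals, KPC replicate 2 lay below control replicate 4. It had 2.13% against 2.32% for the large subunit and 1.47% against 1.58% for the small subunit. In bulk libraries like these, fewer cells of a type and less RNA per cell cannot be told apart.

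**Figure D1:**
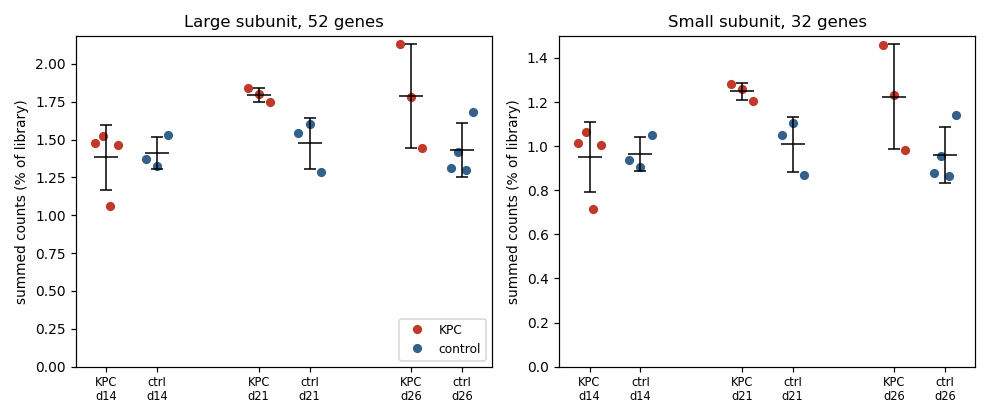
Summed counts of the 52 large subunit genes (left) and the 32 small subunit genes (right) as a percent of each library, by group and day; points are libraries and bars the mean ± SD. At day 21 the large subunit averaged 1.8 ± 0.0456% in KPC and 1.48 ± 0.17% in control libraries (SD, n = 3 each), with no overlap in either subunit.

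Both subunits gave the same picture. The large subunit took 1.79 ± 0.344% of counts in KPC libraries (SD, n = 3) and 1.43 ± 0.178% in controls (n = 4) at day 26. The small subunit took 1.25 ± 0.0391% in KPC and 1.01 ± 0.124% in control libraries at day 21 (n = 3 each), and 1.22 ± 0.238% in KPC (n = 3) and 0.96 ± 0.129% in control libraries (n = 4) at day 26. The ratio of large to small subunit counts stayed between 1.428 and 1.509 in all 20 libraries. At day 21 it was 1.435, 1.428 and 1.450 in KPC libraries, against 1.466, 1.451 and 1.477 in controls, so every KPC ratio was below every control ratio, by little. At day 26 it was 1.461, 1.449 and 1.468 in KPC libraries, against 1.499, 1.482, 1.509 and 1.473 in controls, again without overlap. At day 14 it was 1.458, 1.436, 1.489 and 1.454 in KPC libraries, against 1.465, 1.468 and 1.454 in controls, and the KPC ratios spanned the control ratios.

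The shift was also taken library by library, as the median over the 72 core members (neither RP-like nor below 10 CPM on average) of the log2 difference from the day's control mean, with 0.5 CPM added. At day 14 this median was 0.09, 0.14, -0.40 and 0.08 in KPC libraries, against -0.01, -0.13 and 0.13 in controls. At day 21 it was 0.26, 0.26 and 0.22 in KPC libraries, against 0.07, 0.12 and -0.21 in controls. The 3 KPC libraries of day 21 thus lay within a narrow band, and the spread between the controls was wider than the gap between the groups. At day 26 it was 0.49, 0.37 and 0.01 in KPC libraries, against -0.11, -0.01, -0.15 and 0.26 in controls, where KPC replicate 3 lay near 0 and control replicate 4 well above it.

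Members differed widely in level when compared per kilobase of merged exon, on a scaling common to all 20 libraries. Rplp1, an acidic protein of the stalk that recruits translation factors, was highest at 1315 ± 323 scaled CPM per kb (SD, n = 20). Rps15, next to the decoding site, followed at 918 ± 167, and Rpl4, which lines the tunnel through which the new chain leaves, at 536 ± 84.6. The spans of these neighbours overlapped over libraries: Rplp1 ran from 806 to 2052, Rps15 from 569.6 to 1199 and Rpl4 from 354 to 685. The order depends on the length used, since with the principal transcript in place of merged exons Rpl4 ranked 7 instead of 3.

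Some genes for core proteins were listed far below the rest. Rpl26 had 0 counts in every library, which allows up to 3 counts in each. Rpl30 had 0.733 ± 0.239 scaled CPM per kb, Rpl34 0.951 ± 0.448 and Rps27 4.32 ± 3.37 (SD, n = 20). Of the 59-base words in their principal transcripts (the read length), 98.6% in Rps27, 72.5% in Rpl30, 67.1% in Rpl26 and 35.3% in Rpl34 also occur in transcripts of other genes. Rpl5 and Rpl9 shared 93.4% and 93.2% and had 76.5 ± 17.1 and 122 ± 21.8 scaled CPM per kb. Words were matched on either strand, and those of genes overlapping the member counted as shared. Whether sharing lowered any of these values was not tested. Of the 84 genes, 60 have at least 1 pseudogene named after them in the annotation and 26 overlap an exon of another gene, and how reads that fit several places were counted is not given in the sources used here. Single-gene values of such members, Rps27, Rpl30 and Rpl34 above all, are therefore uncertain as measures of the parent gene.

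**Figure D2:**
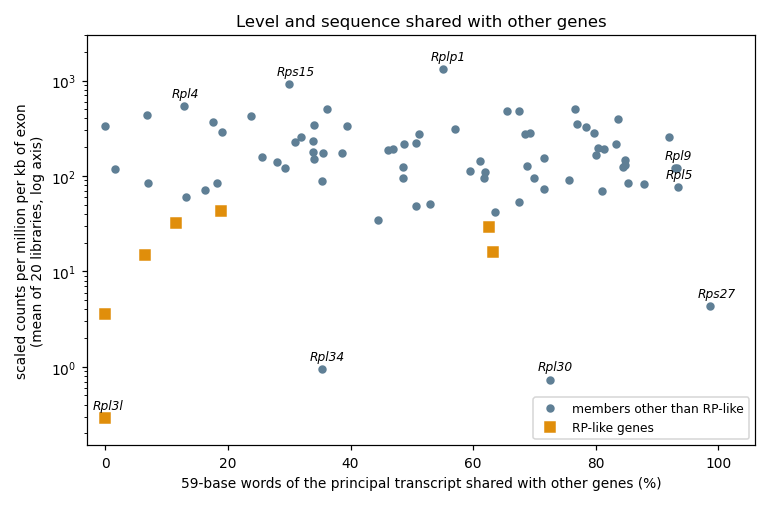
Level per kilobase of merged exon (mean of 20 libraries, log axis) against the percent of 59-base words of the principal transcript that other genes share; each point is 1 of the genes with a level above 0 and a transcript, and squares are RP-like genes. Rps27, Rpl30 and Rpl34 lie far below Rpl5 and Rpl9, which share as many words or more than most members.

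At day 14, KPC and control progenitors did not differ detectably in ribosomal protein messages. Of the 82 members that passed the filter on low counts (Rpl10l and Rpl26 did not), 0 were called higher or lower by edgeR's quasi-likelihood test at a Benjamini-Hochberg adjusted p under 0.05. Over all 13344 genes tested, 1.12% were called. The members' median log2 fold change (KPC over control) was -0.02, beside 0.01 for all genes, and 0 members had an unadjusted p under 0.05, compared with 7.8% of all genes higher and 6.47% lower. No member had groups that did not overlap, compared with 7.52% of all genes with every KPC library above every control and 5.83% with every KPC library below. DESeq2 and limma-voom also called 0 members.

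The stalk protein gene Rplp0 had 778, 752, 587 and 776 scaled CPM in KPC libraries, against 745, 688 and 798 scaled CPM in controls at day 14. Rps6, a target of S6 kinase below mTORC1, had 178, 196, 134 and 173 scaled CPM in KPC libraries, against 179, 144 and 193 scaled CPM in controls. In both genes the lowest of the 7 libraries was KPC replicate 3. Without that replicate the median fold change of the members was 0.08 with 66 of 82 above 0, compared with 51.2% of all genes. At an unadjusted p under 0.05 there were then 7 higher, near the 7.48% of all genes, and 0 lower, and 0 were called.

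At day 21 most ribosomal protein messages stood slightly higher in KPC progenitors, and 3 single genes passed the test. The median log2 fold change of the 81 tested members was 0.22, beside 0.01 for all genes. Of the 81, 73 lay above 0, compared with 51% of the 13154 genes tested. Rps4x, Rps27 and Rpl23 were called higher (6.38% of all genes were) and 0 members were called lower (6.11% of all genes). The 3 of 81 is no larger a share than the background, so the count of calls is not a result about ribosomal proteins. Among the 75 members that are not RP-like, the fold changes ran between quartiles from 0.17 to 0.31, and the whole range from -0.10 (Rps29) to 1.42 (Rps27).

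Counts at looser limits were larger. At an unadjusted p under 0.05, 30 of 81 members were higher, compared with 14.3% of all genes, and 0 were lower (13.4% of all genes). In 42 of 81 members every KPC library lay above every control, compared with 16% of all genes, and in 0 members was every KPC library below (17.2% of all genes). These 42 were 24 of 49 large subunit and 18 of 32 small subunit genes, and 0 of 6 RP-like genes. The members share their libraries and vary together between them, so these counts are not independent of each other. DESeq2 called 18 members higher, where it called 7.93% of all genes higher, and with library size alone as the scaling edgeR called 14, where 8.04% of all genes were higher.

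Rps4x, which encodes a core small subunit protein from the X chromosome, had 930.3, 966 and 945 scaled CPM in KPC libraries, against 730.5, 737 and 622 scaled CPM in controls. The KPC libraries lay close together and above all controls, and the log2 fold change was 0.44 ± 0.11 (SE; adjusted p = 0.0217, edgeR). Rpl23, a large subunit protein that also binds MDM2 when free of the ribosome, had 558, 581 and 557 scaled CPM in KPC libraries, against 450.2, 466 and 365 scaled CPM in controls. Again no libraries overlapped, with a log2 fold change of 0.41 ± 0.12 (SE; adjusted p = 0.0411, edgeR).

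Rps27, a zinc-finger protein of the small subunit, had 3.53, 6.12 and 6.45 scaled CPM in KPC libraries, against 2.06, 2.33 and 1.63 scaled CPM in controls. The groups did not overlap, and the log2 fold change of 1.42 ± 0.37 (SE; adjusted p = 0.029, edgeR) was the largest of the members at that day, on few counts. At day 14 its groups overlapped, with 2.62, 2.79, 2.63 and 3.48 scaled CPM in KPC libraries, against 3.39, 1.99 and 3.25 scaled CPM in controls. These 3 calls depended on single libraries: leaving out any 1 control, or KPC replicate 3, left 0 called, leaving out KPC replicate 2 left 1, and leaving out KPC replicate 1 gave 5.

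**Figure D3:**
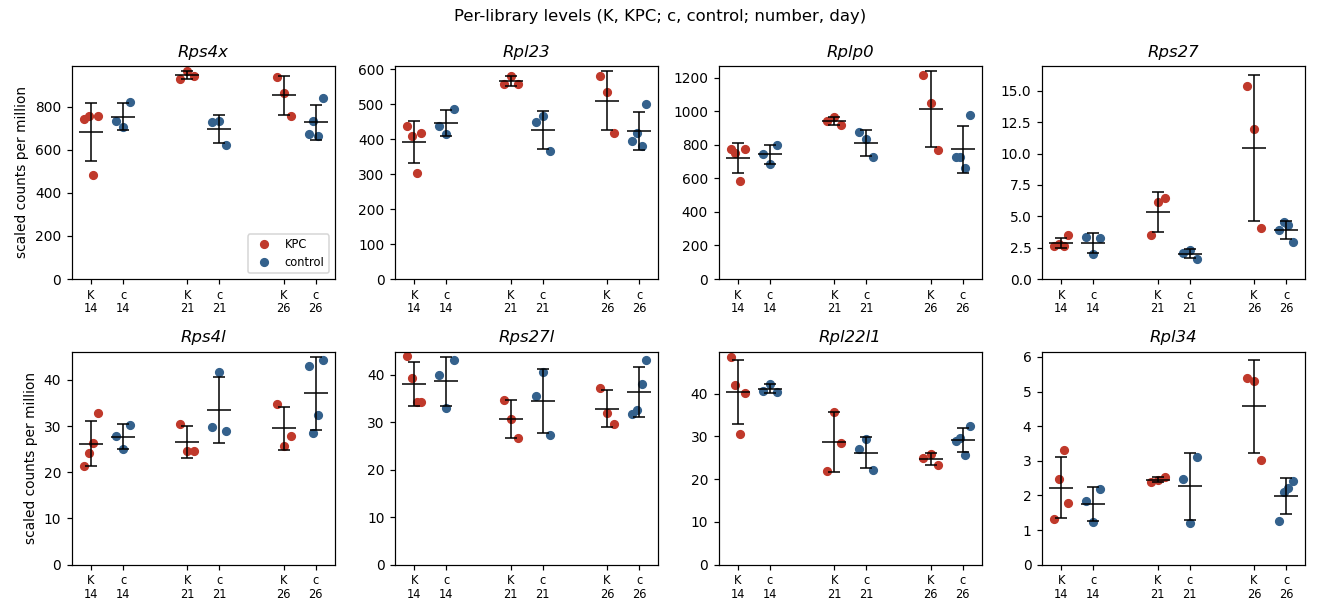
Scaled CPM of 8 members in each library, KPC (K) left of control (c) at each day; points are libraries and bars the mean ± SD. At day 21 Rps4x, Rpl23 and Rps27 show every KPC library above every control, while the RP-like genes Rps4l, Rps27l and Rpl22l1 overlap between the groups.

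Other members with separate roles showed the same small difference at day 21 without passing the test. Rplp0 had 941, 966 and 921 scaled CPM in KPC libraries, against 875, 838 and 726 scaled CPM in controls, so every KPC library was above every control, with a log2 fold change of 0.21 ± 0.11 (SE; adjusted p = 0.239, edgeR). The whole stalk (Rplp0, Rplp1 and Rplp2) had 3 of 3 fold changes above 0 and a median of 0.18. Rps19, a gene mutated in Diamond-Blackfan anaemia, had 291, 247 and 251 scaled CPM in KPC libraries, against 225, 219 and 188 scaled CPM in controls, again without overlap, with a log2 fold change of 0.32 ± 0.11 (SE; adjusted p = 0.0881, edgeR).

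Rpl5 and Rpl11 bind the 5S ribosomal RNA and, when not built into ribosomes, block MDM2. At day 21 Rpl5 had 376, 381 and 371 scaled CPM in KPC libraries, against 323, 323 and 253 scaled CPM in controls, while Rpl11 had 285, 286 and 303 scaled CPM in KPC libraries, against 289, 311 and 254 scaled CPM in controls. The groups did not overlap in Rpl5 and did in Rpl11, with log2 fold changes of 0.33 ± 0.12 and 0.03 ± 0.11 (SE). Neither was called, and the difference between both genes was not tested. Rps6 overlapped too, at 216, 226 and 242 scaled CPM in KPC libraries, against 219, 214 and 165 scaled CPM in controls. Of the 17 tested genes linked to Diamond-Blackfan anaemia, 15 were above 0 with a median of 0.22, of the 6 genes for proteins around the mRNA channel 6 were, with a median of 0.24, and of the 8 for proteins of the exit tunnel 8 were, with a median of 0.22.

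The smallest differences among members that did not overlap at day 21 were those of Rpl7a, Rpl19 and Rpl36. Rpl7a had 554, 526 and 534 scaled CPM in KPC libraries, against 508, 512 and 423 scaled CPM in controls, a log2 fold change of 0.16 ± 0.11 (SE). For Rpl19 it was 0.17 ± 0.11 and for Rpl36 0.17 ± 0.10 (SE), so the gap between the groups was narrow in all 3.

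The RP-like genes stood mostly below 0 at day 21, and 0 were called (0 at an unadjusted p under 0.05). Of the 6 tested, 1 (Rpl22l1) had a fold change above 0 and the median was -0.14, while 72 of the 75 other members were above 0 with a median of 0.23. Rps4l, an Rps4x-like gene that GENCODE annotates as a transcribed processed pseudogene and the only member not annotated as protein-coding, had 30.6, 24.5 and 24.7 scaled CPM in KPC libraries, against 29.7, 41.7 and 29 scaled CPM in controls. The groups overlapped, and the fold change of -0.33 ± 0.17 (SE; adjusted p = 0.235, edgeR) was not called.

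Measured against the summed members, so that the common shift drops out, 2 genes were called at day 21. Rps27 was higher than the rest (1.19 ± 0.41 SE on the log2 scale, adjusted p = 0.0481, edgeR), where 3.75% of all genes were called higher. Rps4l was lower (-0.57 ± 0.19 SE on the log2 scale, adjusted p = 0.0375, edgeR), where 14.7% of all genes were called lower. Without control replicate 1, Rps27 was no longer called, and without control replicate 2, control replicate 3, KPC replicate 2 or KPC replicate 3 neither was. In this scale Rps4x and Rpl23 had log2 differences of 0.20 ± 0.15 and 0.17 ± 0.14 (SE) and were not called, so their difference was not detectably larger than that of the pool.

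Rps4l stood at 2.81 ± 0.412% of the scaled CPM of its partner Rps4x in KPC libraries and 4.79 ± 0.803% in controls at day 21 (SD, n = 3 each). Rpl7l1, a paralog of Rpl7, stood at 7.51 ± 1.84% of Rpl7 in KPC and 10.3 ± 0.577% in control libraries. The groups did not overlap in either ratio. The partners Rps4x and Rpl7 had every KPC library above every control themselves, while the groups overlapped in Rps4l and Rpl7l1, so both ratios partly restate the partners. Rpl36al, which encodes nearly the same protein as Rpl36a, stood at 24.6 ± 2.54% of Rpl36a in KPC and 27.8 ± 2.81% in control libraries. Rpl22l1, whose level the protein Rpl22 is known to hold down in mice, stood at 9.74 ± 2.38% of Rpl22 in KPC and 10.8 ± 0.357% in control libraries. The groups overlapped in both of these ratios.

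Rps27l, the paralog of Rps27, had 34.7, 30.7 and 26.6 scaled CPM in KPC libraries, against 35.4, 40.6 and 27.3 scaled CPM in controls, so the groups overlapped while those of Rps27 did not. Rpl39l, known from testis, had at most 6.26 scaled CPM in any library. Rpl3l, known from striated muscle, passed the filter at day 14 alone and reached at most 1.78 scaled CPM. Rpl10l, also known from testis, had 0 counts in all 20 libraries.

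**Figure D4:**
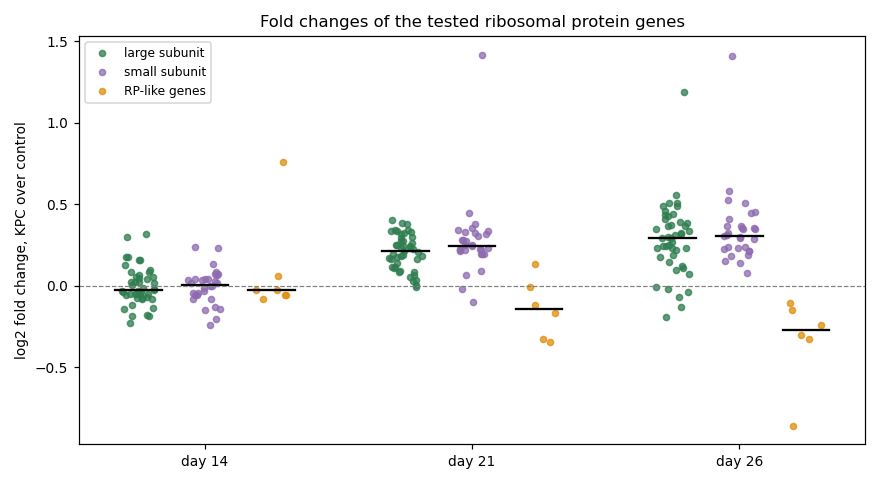
Log2 fold change (KPC over control) of the tested members at each day, with horizontal bars at the medians of the large subunit, small subunit and RP-like genes. Most large and small subunit genes lie above 0 at days 21 and 26, where 5 of 6 and 6 of 6 RP-like genes lie below 0.

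At day 26 the members' median log2 fold change was 0.29, beside 0.00 for all genes, but 0 of 81 members were called by edgeR, as were 0% of the 13157 genes tested. At an unadjusted p under 0.05, 12 of 81 members were higher, compared with 20.3% of all genes, and 0 were lower (13.9% of all genes). DESeq2 called 2 members higher, where it called 12.2% of all genes higher, and limma-voom called 0. The fit of all 20 libraries called 16 members higher at day 26, where it called 19% of all genes higher. A fold change above 0 was found in 69 of 81 members, compared with 49.9% of all genes. The groups did not overlap in 2 members, Rpl34 with KPC above (14.5% of all genes) and Rpl39l with KPC below (14.5%).

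Rplp0 shows how the libraries were spread at day 26, with 1220, 1048 and 773 scaled CPM in KPC libraries, against 729, 727, 663 and 981 scaled CPM in controls. KPC replicates 1 and 2 were the highest of the 7, control replicate 4 came next, and KPC replicate 3 lay near the other controls. Rps19 had the same order at the top, with 401, 311 and 217 scaled CPM in KPC libraries, against 188, 227, 183 and 272 scaled CPM in controls. Rps27 had 15.4, 11.9 and 4.06 scaled CPM in KPC libraries, against 3.92, 4.54, 4.29 and 2.95 scaled CPM in controls, where KPC replicates 1 and 2 were far above the rest and KPC replicate 3 was among the controls; its log2 fold change was 1.41 ± 0.42 (SE; adjusted p = 0.0797, edgeR).

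Rpl34, a large subunit protein, had 5.41, 5.29 and 3.01 scaled CPM in KPC libraries, against 1.25, 2.1, 2.2 and 2.43 scaled CPM in controls. All KPC libraries were above all controls on few counts, with a log2 fold change of 1.19 ± 0.37 (SE; adjusted p = 0.0847, edgeR). Rpl39l had 2.34, 2.31 and 1.35 scaled CPM in KPC libraries, against 3.15, 2.54, 2.59 and 6.26 scaled CPM in controls, with a log2 fold change of -0.86 ± 0.45 (SE; adjusted p = 0.2, edgeR). Neither passed the test.

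The calls at day 26 depended on the libraries and on the fit. Without KPC replicate 3, 35 of 81 members were called higher, compared with 25.7% of all genes, and 0 were called lower (25.9%). The median of the members was then 0.40, beside -0.01 for all genes. Without that library Rps27 was higher by 1.78 ± 0.24 (adjusted p = 0.000508), Rps19 by 0.69 ± 0.19 (adjusted p = 0.0156) and Rpl5 by 0.65 ± 0.15 (adjusted p = 0.00707), as log2 fold changes with SE from edgeR. Within the libraries numbered 227 (2 KPC and 3 control), which leaves out control replicate 4 as well, 58 members were called higher, compared with 24.3% of all genes, and the median was 0.51. The 6 tested RP-like genes had fold changes below 0 at day 26, with a median of -0.27, and below 0 too without KPC replicate 3, where their median was -0.26 and 0 were called. Between quartiles, the fold changes of the 75 other members at day 26 ran from 0.21 to 0.39 with all libraries in the fit.

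**Figure D5:**
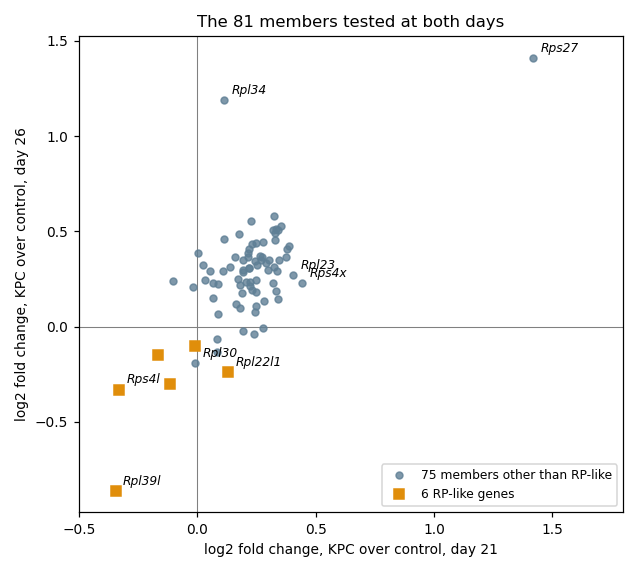
Log2 fold change (KPC over control) at day 26 against that at day 21 for the 81 members tested at both days, which share no libraries; squares are RP-like genes. Of the 81, 67 lie above 0 at both days and 6 below 0 at both, and Rps27 stands apart at 1.42 and 1.41. The members vary together between libraries, so the points are not independent.

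Days 21 and 26 have no libraries in common, and their fold changes can be set side by side. Of the 81 members tested at both, 67 were above 0 at both days, 6 were below 0 at both and 8 differed in sign. Of all genes tested, 51% were above 0 at day 21 and 49.9% at day 26, and the share above 0 at both was not taken. The members vary together between libraries, so the 67 largely restate a common shift on each day and are not separate events. The difference of the KPC effect between days was itself tested in one edgeR fit of all 20 libraries. Between days 14 and 21 the effect differed by a median of 0.25 (log2, day 21 minus day 14) over the members, beside 0.03 for all genes. Of the 82 members tested, 0 were called, where 0.644% of all genes were, and 10 had an unadjusted p under 0.05 with a larger effect at day 21, compared with 8.6% of all genes.

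Between days 14 and 26 the median difference was 0.31, with 0 of 82 called where 14.3% of all genes were, and 14 with an unadjusted p under 0.05 and a larger effect at day 26, compared with 18.4% of all genes. Without KPC replicate 3 of day 26, 26 members were called with a larger effect at day 26, compared with 19.7% of all genes. Between days 21 and 26 the median difference was 0.03, with 0 called by edgeR (0% of all genes) and 0 higher at an unadjusted p under 0.05 (7.53% of all genes). A change in the effect over time was therefore not shown for any single member with all libraries in the fit. Among sham controls alone, Rpl22l1 was lower at day 21 than at day 14 (log2 difference -0.60 ± 0.17 SE, adjusted p = 0.0349, edgeR), where 6.85% of all genes were called lower. Rpl41, which encodes a very short basic protein of the large subunit, was higher in sham controls at day 26 than at day 14 (log2 difference 0.60 ± 0.17 SE, adjusted p = 0.0345, edgeR), where 1.43% of all genes were called higher. In each of these comparisons 1 of the 82 tested members was called, and day and library code number cannot be told apart there.

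Genes that act with the ribosome were described from lists of their own. Of 20 translation genes whose messages carry a TOP motif, 4 were called higher at day 21, where 6.38% of all genes were, and the median was 0.25. The elongation factor Eef1a1 averaged 5603 ± 556 scaled CPM in KPC and 4188 ± 304 in control libraries (SD, n = 3 each), a log2 fold change of 0.42 ± 0.12 (SE; adjusted p = 0.0455, edgeR). Pabpc1, which binds poly(A) tails, averaged 402 ± 75.2 in KPC and 283 ± 12.8 in control libraries, a log2 fold change of 0.51 ± 0.13 (SE; adjusted p = 0.0295, edgeR).

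The elongation factor Eef1b2 and the nucleolar chaperone Npm1 were the other 2, with log2 fold changes of 0.43 ± 0.11 and 0.42 ± 0.10 (SE). At days 14 and 26, 0 of these 20 were called by edgeR, with medians of -0.10 and 0.21. At an unadjusted p under 0.05 there were 0 higher and 1 lower at day 14 (7.8% and 6.47% of all genes), and 4 higher and 0 lower at day 26 (20.3% and 13.9% of all genes), so the 4 of 20 is about the background share. Without KPC replicate 3 of day 26, 7 of the 20 were called higher (25.7% of all genes were).

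Mitochondrial ribosomal protein genes, whose products translate the mitochondrial genome, stood on the other side of 0 at days 21 and 26. Of 77 tested, 27 were above 0 at day 21 with a median of -0.08, and 20 at day 26 with a median of -0.19 (51% and 49.9% of all genes were above 0). At day 14, 57 were above 0 with a median of 0.09. Short genes outside the members did likewise. Of non-members with principal transcripts up to 1000 bases, 39% were above 0 at day 21, 35.5% at day 26 and 58.1% at day 14. Their medians were -0.11, -0.22 and 0.05, so these sides of 0 are not particular to mitochondrial ribosomal protein genes. At day 21, 0 were called higher and 1, Mrps28, was called lower, at 9.46 ± 1.75 scaled CPM in KPC and 17.3 ± 4.55 in control libraries (SD, n = 3 each). Without KPC replicate 3 of day 26, 4 were called higher and 20 lower, where 25.7% of all genes were called higher and 25.9% lower, so the count of lower genes is about the background share.

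Of 24 genes of mTORC1 signalling and TOP message control, 2 were called higher and 1 lower at day 21, where 6.38% of all genes were called higher and 6.11% lower. Eif4ebp1, a translation repressor that mTORC1 switches off, averaged 44.6 ± 4.37 scaled CPM in KPC and 29.9 ± 1.99 in control libraries (SD, n = 3 each), with a log2 fold change of 0.58 ± 0.13 (SE; adjusted p = 0.0134, edgeR). Deptor, an inhibitor within mTOR complexes, had a log2 fold change of 0.77 ± 0.15 (SE; adjusted p = 0.00782, edgeR), and Mlst8, a core subunit of both mTOR complexes, -0.62 ± 0.17 (SE; adjusted p = 0.0328, edgeR). Of 9 genes of ribosome stalling and rescue, 1 was called, Zak (Map3k20, a kinase that senses stalled ribosomes), at 0.49 ± 0.14 (SE; adjusted p = 0.04, edgeR). At days 14 and 26, 0 genes of either list were called by edgeR. At day 26, 15 of the 24 mTORC1 genes were higher and 2 lower at an unadjusted p under 0.05, and 5 of the 9 stalling genes were higher, compared with 20.3% of all genes higher and 13.9% lower. Without KPC replicate 3, 16 of the 24 were called higher and 4 lower, and 6 of the 9 were called higher, where 25.7% of all genes were called higher and 25.9% lower.

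The members' shift was also set beside that of short genes and of abundant genes, each class taken apart. At day 21, the 639 tested non-members whose principal transcript is at most 1000 bases had a median log2 fold change of -0.11, and the 1221 non-members averaging log2 CPM 7 or more had -0.09. At day 26 the medians were -0.22 and -0.05. Non-members both at most 1000 bases long and averaging log2 CPM 6 or more had medians of -0.09 at day 21 (89 genes) and -0.16 at day 26 (92 genes). The medians of these classes thus lay below 0 at both days, while those of the members lay above. The part of length or level in the members' shift was not tested.

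Markers of other cells differed between the groups as well, and did so at day 14 too. At day 14 the endothelial markers summed to 784, 987, 925 and 874 scaled CPM in KPC libraries, against 668, 664 and 578 in controls, while the ribosomal protein shares overlapped. Of 12 endothelial markers, 7 were called higher and 1 (Tek) lower at day 21, where 6.38% of all genes were called higher and 6.11% lower. Their summed level was 1253, 802 and 691 scaled CPM in KPC libraries, against 810.4, 768 and 787 in controls. Of 13 macrophage and leukocyte markers, 9 were tested and 2 called higher (6.38% of all genes were), with sums of 98.1, 39.4 and 23.7 in KPC libraries, against 23, 18.8 and 14.8 in controls. KPC replicate 3 of day 21 had an endothelial sum below all 3 controls, but the sum followed Tek more than the other markers. In controls Tek averaged 472 of the summed 788 scaled CPM. It ran from 294 to 394 in KPC and from 449 to 493 in control libraries. Pecam1 ran from 37.8 to 142 in KPC and 15 to 19.7 in control libraries, and Vwf from 13 to 58.9 and 5.48 to 6.1. A low sum is thus no measure of low endothelial markers in general.

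Myofibre markers summed to 604, 111 and 55.2 scaled CPM in KPC libraries at day 21, against 44.8, 57.8 and 31.7 in controls, and 0 of 11 tested were called by edgeR, with 3 higher at an unadjusted p under 0.05. Of 8 mural markers 1 was called higher and 1 lower (6.38% and 6.11% of all genes were), of 6 glial markers 1 was called higher, and of 6 satellite cell markers 2 were tested and 0 called by edgeR (0 at an unadjusted p under 0.05). Their sums at day 21 were 594 to 834 scaled CPM in KPC and 651 to 708 in control libraries for mural markers, 43.1 to 152 in KPC and 42.8 to 52.4 in control libraries for glial markers, and 44.8 to 69.7 in KPC and 39.6 to 46.5 in control libraries for satellite cell markers. Of 6 erythroid markers only Alas2 could be tested, and it was called higher (2.72 ± 0.54 SE on the log2 scale); the 4 globin genes of the list were at 0 in all 20 libraries. At day 26 the endothelial sum was 1281, 411 and 654 scaled CPM in KPC libraries, against 756, 763, 675 and 586 in controls. KPC replicate 1 had the highest endothelial sum and the highest ribosomal protein share of that day, and KPC replicate 2 had the lowest endothelial sum. Tek weighed on these sums too, at 133 to 362 scaled CPM in KPC and 338 to 446 in control libraries. Vwf ran from 9.28 to 119 in KPC and 2.29 to 4.93 in control libraries, and Pecam1 from 12.5 to 241 and 4.45 to 15.8. The lowest sum therefore does not mark the library with the least of each endothelial marker. The erythroid sum at day 26 was 36.3, 21.5 and 2.71 scaled CPM in KPC libraries, against 0.713, 0.83, 0.271 and 2.1 in controls. The macrophage and leukocyte sum at day 26 was 444, 41.8 and 29.1 in KPC libraries, against 20, 20, 25 and 24.2 in controls. Myofibre markers summed there to 338, 122 and 89.6 in KPC libraries, against 41.6, 118, 35.5 and 42.1 in controls. Glial markers summed to 126, 41.7 and 39.9 in KPC libraries, against 41, 37.2, 23.5 and 26.7 in controls. In each of these sums KPC replicates 1 and 2 were highest, as they were in ribosomal protein share. The endothelial, mural and satellite cell sums did not have this order. Among the progenitor's own markers at day 21, Cd34 (-1.14 ± 0.15 SE, log2) and Col15a1 (-1.86 ± 0.42) were called lower and Dcn (0.49 ± 0.14) higher, and Pdgfra (0.09 ± 0.11) was not called. Beyond these values, the part of other cell types in the ribosomal protein shift was not tested.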

How the data were processed

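The authors deposited raw counts per gene symbol in 1 table per day, and these counts are the values used. Per the submitters' processing notes, the tools were R 4.2.1 with DESeq2 1.36.0, STAR, Bowtie and bcl2fastq 2.20, and the build was mm10. Not given in the sources used here are the counting program, its strand setting and annotation, and its treatment of reads that fit several genes. Per the labels' protocols, RNA had a RIN of 7 or above and libraries came from the Illumina Stranded mRNA prep, read as 59 × 59 bases on a NextSeq instrument. In the tables of days 14 and 21, 25 symbols had turned into dates; they stayed in the fits and are not named.

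Each day was fitted with edgeR 4.0.16 (R 4.3.3) on group alone, after filterByExpr (minimum count 10, minimum total 15) and TMM scaling, with the robust quasi-likelihood test and Benjamini-Hochberg adjustment over all genes tested. Differences between days came from 1 fit of all 20 libraries. A further fit took the summed members as library size. Alternatives were DESeq2 1.42.0, limma-voom (limma 3.58.1), other scalings and filters, a fit of all libraries, a replicate block, the libraries numbered 227 at day 26, and each library left out. The fits were run on simulated counts with larger changes in genes outside the members, so a shift as small as that of the members was not tried. Lengths, overlaps and pseudogene names came from GENCODE vM21, which annotated all 84 members, and sequences from the RefSeq table of GRCm38.p6. Summaries and figures were made in Python 3.11.15 with pandas 2.3.3 and matplotlib 3.10.9.

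The members and gene lists were chosen with earlier results of these data known. Named are called members, members whose groups do not overlap with the largest and smallest fold changes, RP-like genes and their partners, the highest and lowest levels, and Rplp0, Rpl5, Rpl11, Rps6 and Rps19; Rpl9, Rpl41 and Rps29 were named after their values were seen. Ribosomal protein genes with symbols outside the rule are not reported here. Intervals and limits at 0 counts cover counting error only.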

Additional observations from a re-analysis of the deposited data

Results flagged for a closer look

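In groups of 4 libraries, a sample far from the other 3 was looked for by Dixon's test in 64 sets of values, of which 14 had one; chance gives about 1 in 20 such sets. Because all members share the same libraries, these are not separate events, and they point to 2 libraries. KPC replicate 3 of day 14 stood below the other KPC libraries of that day, at 1.06% of counts for the large subunit and 0.714% for the small subunit. In the same library Rpl10 was at 424 scaled CPM, Rpl22 at 179.5, Rpl36 at 129.9, Rpl4 at 736, Rplp0 at 587, Rps19 at 185 and Rps4x at 482. Control replicate 4 of day 26, which has another code number than the other 3 controls, stood above them for Rpl11 at 284 scaled CPM, Rpl3 at 461, Rpl39 at 85.9, Rpl39l at 6.26 and Rplp1 at 940.3. Groups of 3 libraries were not tested.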

How the results depend on the processing

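Counts of called members at day 14 were 0 under every alternative run. The 3 called at day 21 were 14 with library size alone (where 8.04% of all genes were called higher), 18 with DESeq2 (7.93%) and 0 in the fit of all 20 libraries. With 1 library left out they were 0 to 5, in fits that called 717 to 2644 of all genes. Against the pool, the 2 called at day 21 were 0 to 2 with 1 library left out, in fits that called 1383 to 2599 of all genes. At day 26 the 0 called became 2 with DESeq2 (12.2% of all genes were called higher) and 16 in the fit of all 20 libraries (19%). They were 58 with code number 227 only (24.3%). With 1 library left out they were 0 to 35, in fits that called 0 to 6972 of all genes. Against the pool they were 0 to 5 with 1 library left out, in fits that called 0 to 6383 of all genes. Differences between days were 0 under all alternatives except day 26 minus day 14. There they were 0 to 26 with 1 library left out, in fits that called 466 to 5900 of all genes. Other scalings left the median fold change of the members at day 21 above 0. Why these settings differ was not tested.

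Replicate numbers did not pair the libraries: correlations of same-numbered libraries ran from -0.148 to 0.166. With the replicate block, the members called were 0 at day 14, 2 at day 21, 0 at day 26, and 0 for each difference between days. Ratios of KPC to control shares stayed on the same side of 1 at days 21 and 26 with each library left out (large subunit 1.14 to 1.27 and 1.13 to 1.37, small subunit 1.16 to 1.30 and 1.15 to 1.40), and crossed 1 at day 14 (0.946 to 1.06 and 0.944 to 1.07). With the 50 most abundant genes left out of the totals, the large subunit at day 26 averaged 2.19% in KPC and 1.94% in control libraries, a smaller gap for its level than with all genes. At day 21 it ran from 2.30 to 2.42% in KPC and from 1.78 to 2.19% in control libraries, still without overlap. The highest member's level over the median member was 8.36 with merged exons, 4.70 with the longest transcript and 3.57 with the principal transcript, a length chosen after the lengths were seen. Genes with few counts limit what can be said of Rps27, Rpl30, Rpl34 and Rpl39l.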
